A study of Sus scrofa with 13 samples.

Results

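The samples compared were biceps femoris muscles of dystrophin knockout pigs, 3 animals at 3 months of age and 4 at 2 days, which make 7 of the 13 arrays of the study. They were chosen by their labels for genotype and age, and the change from 2 days to 3 months was read for all 21893 probe sets of a whole-transcript expression array and for the 10283 genes that have a probe set with exactly 1 gene symbol. Where a gene had several probe sets, the one with the highest mean over all 13 arrays stood for it. The other 6 arrays, 3 wild-type (WT) muscles at each age, served to show how normal growth looks over the same time.

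All animals were German Landrace pigs, and each array held the muscle of 1 animal with no pooling. The knockout (DMD KO) animals came from nuclear transfer of kidney cells in which a modified bacterial artificial chromosome had removed exon 52 of DMD, the gene for dystrophin. WT animals were unmodified. DMD KO muscle was collected once an animal had died by itself, and WT animals were euthanised at matching ages. The DMD KO groups are therefore animals that died as newborns (called newborn below) and other animals that lived to 3 months before they died (called grown), so the age change and the difference between early and late death cannot be told apart. In every comparison with WT, the genotype cannot be told apart from nuclear transfer and from the manner of death. The labels do not say whether the animals came from 1 clone of donor cells, from 1 litter or from several. The series' labels give the arrays of a group as biological replicates.

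Dystrophin links the actin skeleton of a muscle fibre through a complex of membrane proteins to laminin in the matrix around it. Without it the membrane tears under load, fibres die and are regenerated in repeated rounds, macrophages clear the debris, and fibroblasts lay down collagen. In healthy pigs the first weeks of life are the time when muscle grows fast, fibres take on their adult isoforms and fast glycolytic fibres become the main type of this muscle.

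Values are log2 levels, a scale on which a difference of 1 is a 2-fold difference. Array medians lay between 7.32 and 7.38, and arrays give no read counts, so the number of animals limits the precision. The 7 DMD KO arrays correlated closely within their groups (mean correlation across probe sets to the other arrays of the group from 0.974 to 0.985), and grown DMD KO replicate 3 was the farthest from its group. Among the WT arrays replicate 3 at 2 days stood apart (mean correlation of 0.918 to the other 12 arrays, against 0.943 or more for any other array). Markers of skeletal muscle fibres such as the fast myosin chain MYH1 and the regulatory light chain MYL2 were among the bright genes of all 7 DMD KO arrays, with mean levels of 11.47 and 12.74 in newborns and 12.26 and 12.85 in grown animals. DMD itself is printed first among the genes of its complex below. In whole muscle, fewer cells of a type and less RNA per cell cannot be told apart.

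The comparison of grown with newborn DMD KO muscle asks what happens to the muscle as the disease and growth go on together. By limma 1760 probe sets passed at an adjusted p under 0.05 (8.04% of all), 979 higher (4.47%) and 781 lower (3.57%) in grown animals. Among named genes 1013 passed (9.85%), of which 586 rose (5.70%) and 427 fell (4.15%), and 333 of them changed by at least 1 on the log2 scale, 235 upward and 98 downward. The median change of all named genes was -0.01. No fold is given where the mean of the dimmer group fell under the 25th percentile of array levels (6.53 to 6.61), because such levels may be near background, and only the log2 difference is printed. The names in this report follow a rule by size of change and by gene list unless a gene is said to have been chosen after its values were seen.

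Many of the genes that rose most are known from connective tissue cells or macrophages, though arrays of whole muscle do not show which cells made them. KERA (keratocan), a small proteoglycan of dense collagen, stood at 5.55, 6.69, 5.67 and 6.24 in the 4 newborns and at 10.23, 10.11 and 9.25 in the 3 grown animals. The groups lay more than 2 units apart, and the difference was 3.82 ± 0.56 (SE, adjusted p = 0.000981). LRRC17, a secreted leucine-rich repeat protein, rose by 3.32 ± 0.26 (SE, adjusted p = 1.25e-05). LYZ (lysozyme), the antibacterial enzyme of macrophages, was 9.61-fold higher in grown animals (3.26 ± 0.33, SE, adjusted p = 7e-05), and P2RY12, a nucleotide receptor of microglia and some macrophages, was 9.45-fold higher. The cytokine IL18 rose by 3.11, the B-cell scaffold protein BANK1 by 2.997 (7.98-fold) and CCL2, the chemokine that draws monocytes, by 2.97.

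The other rises among the 15 largest were the matrix proteins CCDC80 (2.88), C1QTNF3 (2.70) and CTHRC1 (2.59), the lysosomal protease CTSS (2.58), RGS2 (2.50), an inhibitor of G-protein signals, VSIG4 (2.50), a complement receptor of tissue macrophages, the muscle carbonic anhydrase CA3 (2.61) and the locus LOC100516876 (2.74). Of these 15 genes CA3 alone was also called in WT, with a larger rise there (3.43, adjusted p = 4.19e-05). For each of the 15 the newborn and grown values lie apart, as the naming rule required. Over all named genes the 2 groups did not overlap for 2473 (24.0%).

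The genes that fell most were, in newborn DMD KO muscle, high. FMO1, a flavin-containing monooxygenase, stood at 10.60, 10.87, 10.31 and 10.80 in newborns and at 7.61, 7.65 and 9.23 in grown animals. All grown values lay below the newborn ones, but grown replicate 3 lay between the newborns and the other 2 grown animals. The fall was 5.59-fold (-2.48 ± 0.43, SE, adjusted p = 0.00288). AGTR1, the angiotensin II receptor, fell 4.25-fold, RETREG1, which feeds endoplasmic reticulum to autophagy, fell 4.22-fold, ABCA5, a lipid transporter, 3.84-fold, and EGLN3, an oxygen-sensing prolyl hydroxylase, 3.76-fold. ADGRF5, an adhesion receptor of endothelial cells, stood at 9.67, 9.67, 9.73 and 9.89 in newborns and 7.46, 7.96 and 8.14 in grown animals, a 3.70-fold fall with no overlap.

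Further large falls were in RSPO3 (-1.81), an enhancer of Wnt signals, BEX1 (-1.79), an adaptor protein seen in regenerating muscle, ALPK2 (-1.73), a kinase of heart and muscle, AASS (-1.71), the enzyme that opens lysine breakdown, SPTB (-1.70), the beta-spectrin of the membrane skeleton, UTP11 (-1.67), a factor of ribosome production, and the locus LOC100516643 (-1.71). FBXO32 (atrogin-1) and GABARAPL1 complete the 15 and are described with protein breakdown. The range of adjusted p over the 15 falls was 1.19e-05 to 0.0158.

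In WT muscle over the same 3 months most of the genes called in DMD KO were not called. There 342 named genes passed (3.33%), 199 upward (1.94%) and 143 downward (1.39%). Genes that rose in both genotypes numbered 52, which is 8.87% of the rises in DMD KO and 26.1% of those in WT, and genes that fell in both numbered 25, or 5.85% and 17.5%. A further 47 genes rose in DMD KO and fell in WT (32.9% of the WT falls), and 7 did the reverse (3.52% of the WT rises). Over all named genes 5.70% rose and 4.15% fell in DMD KO. Calls in the same direction in both genotypes were thus more frequent among genes called in WT than over all genes. Among the WT falls, however, rises in DMD KO (32.9%) were more frequent than falls (17.5%). Both tests use 1 shared estimate of the spread of each probe set, so their calls are not independent. Across all 10283 named genes the change in DMD KO and the change in WT had a Pearson correlation of 0.03 and a Spearman correlation of -0.01. This compares 1 probe set per gene on arrays of 1 kind, in groups that share no animals. Over the 1013 genes called in DMD KO the Pearson correlation was 0.10, and 0.14 without WT replicate 3 at 2 days.

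**Figure D1:**
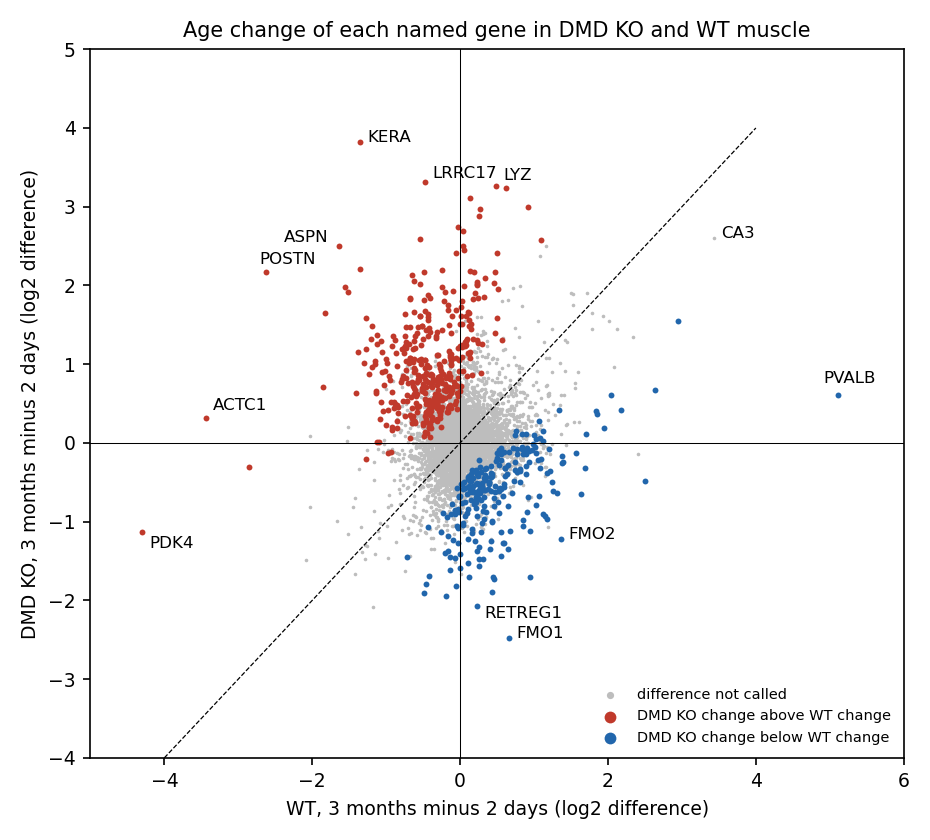
Each point is 1 of 10283 named genes, with its log2 difference between 3 months and 2 days in WT (horizontal axis) and in DMD KO (vertical axis), and the dashed line marks equal change. Red and blue points are genes whose change differed between the genotypes at an adjusted p under 0.05. KERA, ASPN and POSTN lie high on the left, with rises in DMD KO and lower values at 3 months in WT, PVALB lies far to the right near 0 in DMD KO, and CA3 lies near the dashed line.

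The difference between the genotypes in the age change was tested directly, though genotype goes with nuclear transfer and manner of death here. It was called for 634 named genes (6.17%), higher in DMD KO for 386 (3.75%) and lower for 248 (2.41%). This test holds the DMD KO arrays too, so it is not independent of the counts above. It was called for 304 of the 586 genes that rose in DMD KO and for 151 of the 427 that fell. Of the 586 rises 277 (47.3%) had the same sign in WT, with a median WT change of -0.02, and of the 427 falls 255 (59.7%), with a median WT change of -0.06.

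The largest positive differences from WT were in KERA (5.18), POSTN (4.79), ASPN (4.13), LRRC17 (3.79), ACTC1 (3.76), VCAN (3.55), PCLAF (3.54) and ASPA (3.48). PCLAF, a partner of the replication clamp PCNA, did not pass in DMD KO itself (1.98, adjusted p = 0.0532), but it passed under 8 of the alternatives, among them without WT replicate 2 at 2 days and without WT replicate 1 or 2 at 3 months. ASPA, the enzyme that cleaves N-acetylaspartate, rose by 1.66 in DMD KO (adjusted p = 0.0215), a call that ended without newborn replicate 1, newborn replicate 4 or grown replicate 3. The largest negative differences were in PVALB (-4.49), FMO1 (-3.14), TEX9 (-2.99), LOC100516643 (-2.65), FMO2 (-2.59), ADGRF5 (-2.32), RETREG1 (-2.30) and PFKFB1 (-2.27).

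Macrophage genes rose as a group. Of 17 measured macrophage markers 12 rose in grown DMD KO animals and the other 5 did not pass in either direction, with a median change of 1.14 against -0.01 over all genes. In WT no marker passed by limma (0 of 17, and 3 at an unadjusted p under 0.05), and the difference between the genotypes was called for 10. The mean level of the 17 markers ran from 7.21 to 7.29 in newborn DMD KO arrays and from 8.26 to 8.85 in grown ones, against 7.0 to 7.41 in the 6 WT arrays. Grown replicate 3 had the highest mean of the list, and without it the median change was 0.80 with 11 markers called.

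MSR1, a scavenger receptor, stood at 7.01, 7.05, 6.73 and 6.97 in newborns and 9.15, 8.83 and 10.19 in grown animals, against 6.16, 6.31 and 6.24 and 6.63, 6.21 and 6.02 in WT at 2 days and 3 months. All 3 grown DMD KO animals lay above every other array. The rise was 5.46-fold (2.45 ± 0.25, SE, adjusted p = 8.17e-05). VSIG4 stood at 6.09, 6.48, 6.40 and 6.34 in newborns and 8.11, 8.78 and 9.60 in grown animals, while all 6 WT arrays lay between 6.13 and 6.42. CTSS, a cathepsin of antigen-presenting cells, stood at 8.23 ± 0.30 (SD, n = 4) in newborns and reached 10.80 ± 0.27 (SD, n = 3), a 5.97-fold rise. The Fc receptor chain FCER1G rose 4.29-fold and the pore protein MPEG1 3.54-fold.

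The 5 markers without a call are named because the count is small, after their values were seen. They were CSF1R (0.08, adjusted p = 0.882), the receptor for the macrophage growth factor, C1QA (0.29, adjusted p = 0.126), MARCO (-0.01), ADGRE1 (0.17) and the integrin chain ITGAM (0.26). C1QA passed without WT replicate 3 at 2 days. Its partner chains C1QB and C1QC, which form the same protein with it, stood at 7.51 and 7.78 in newborns and 8.66 and 8.74 in grown animals, and C1QA at 7.97 and 8.26. The rise was thus not shared by every marker of the list.

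Complement and chemokine genes rose with the macrophage markers, and 4 genes of the complement list are macrophage markers themselves. Of 17 complement genes 9 rose and 1 fell (median 0.61), and in WT 0 passed by limma (2 at an unadjusted p under 0.05). CFI, the protease that inactivates C3b and C4b, stood at 5.76, 5.73, 6.07 and 5.55 in newborns and 7.87, 7.99 and 7.99 in grown animals, a difference of 2.17 ± 0.17 (SE, adjusted p = 1.43e-05) with no overlap. Clusterin (CLU) rose 2.50-fold, the C1 inhibitor SERPING1 by 0.72 and C7, of the membrane attack complex, by 0.63. The gene that fell was MASP1, a protease of the lectin pathway, at 8.48, 8.59, 8.06 and 8.73 in newborns and 7.41, 7.25 and 7.18 in grown animals (2.27-fold, adjusted p = 0.000347). WT animals of both ages lay between 7.14 and 7.55 for MASP1, at the level of grown DMD KO muscle. The call of C7 was lost with 1 replicate left out (newborn 1, 2, 3 or 4, grown 1 or 3).

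Of 24 chemokines and cytokines 5 rose, IL18, CCL2, CXCL14 (1.91), CXCL12 (1.20) and CXCL16 (1.08), and the difference from WT was called for IL18, CCL2 and CXCL14 among them. IL18, a cytokine activated by the inflammasome, was at 6.52, 6.66, 6.54 and 6.53 in newborns, at 9.47, 9.75 and 9.80 in grown animals and at most 7.33 in WT. CCL2 was at 5.80, 6.72, 6.51 and 6.78 in newborns and 9.30, 10.37 and 8.59 in grown animals, with WT arrays between 7.55 and 8.49. Newborn DMD KO muscle thus lay below all WT arrays for CCL2 and grown DMD KO muscle above them. Of the 24 genes of the interferon response 0 passed by limma in DMD KO (1 at an unadjusted p under 0.05), with a median of -0.16. The brightest of them were IFIT1 (-0.97, adjusted p = 0.513), HERC5 (-0.03) and OAS2 (-0.26).

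Some genes of antigen presentation rose in both genotypes. Of 13 genes of the list 5 rose in DMD KO (median 0.34) and 3 in WT, and the difference between the genotypes was called for 0 of the 13 by limma. SLA-DRA, a chain of the class II molecule, was 3.13-fold higher in grown DMD KO muscle (1.65 ± 0.31, SE, adjusted p = 0.00484) and rose by 1.78 in WT (adjusted p = 0.0124). The class II genes SLA-DQA1 (1.54), SLA-DQB1 (1.02), SLA-DRB1 (0.98) and SLA-DMA (0.60) were the others. Class II genes are close copies of one another, and signals of the probe sets may be shared between them.

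Some markers of other leukocytes rose. Of 15 T and NK cell markers 3 rose, CD2 (1.45), CD3G (1.33) and NKG7 (0.57), while the list median was 0.06. Without grown replicate 2 or grown replicate 3 the count was 1. Leaving out 1 of the replicates in brackets ended the calls of CD2 (newborn 1, 2, 3 or 4, grown 2 or 3, WT 2-day 1 or 2) and NKG7 (grown 2 or 3). In the B and plasma cell list BLNK (1.15) and XBP1 (0.85) rose out of 8, with a list median of -0.04. XBP1 is also a gene of the endoplasmic reticulum stress list. In the mast cell list MS4A2 (1.03) rose out of 4, with a list median of 0.03. Of 5 neutrophil markers and of 6 red blood cell markers 0 passed by limma (0 and 1 at an unadjusted p under 0.05), with medians of -0.10 and -0.09.

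Fibroblast markers and the matrix they make rose together. Of 14 markers of fibroblasts and fibro-adipogenic cells 10 rose (median 0.91), while in WT 1 rose and 3 fell (median -0.47). Their mean level was 8.43 to 8.62 in newborn and 9.33 to 9.48 in grown DMD KO arrays, against 9.15 to 9.26 and 8.76 to 9.02 in WT at 2 days and 3 months. THY1, a surface protein of fibroblasts, stood at 6.29, 6.87, 6.53 and 6.61 in newborns and 8.33, 8.54 and 8.28 in grown animals, and FAP, a protease of activated fibroblasts, at 8.58, 8.61, 8.47 and 8.72 and 10.18, 10.31 and 10.33. Neither gene overlapped between the ages, and FAP was 3.19-fold higher. Of the 14 markers 7 are matrix genes that other lists also hold.

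Of 20 collagen chains 9 rose in DMD KO (median 0.43) and 6 fell in WT, and the difference between the genotypes was called for 8. COL1A1, the main chain of collagen I, was at 11.18, 11.49, 11.68 and 11.24 in newborns and 13.18, 13.38 and 13.11 in grown animals, and at 13.44, 13.50 and 13.42 and 12.65, 12.41 and 13.29 in WT at 2 days and 3 months. Newborn DMD KO muscle held the 4 lowest values of the 13 arrays, and grown DMD KO muscle lay among the WT values. The rise was 3.54-fold (1.83 ± 0.18, SE, adjusted p = 6.1e-05). A dimmer probe set of COL1A1 rose by 0.70. COL3A1 rose 3.12-fold (1.64 ± 0.10, SE, adjusted p = 3.06e-06) and fell in WT (-0.75, adjusted p = 0.00292). COL12A1 rose 2.80-fold, COL1A2 2.55-fold, COL14A1 2.47-fold and COL6A3, a chain of the microfibrils at the fibre surface, 2.36-fold. Dimmer probe sets of COL6A3 rose by 0.52 and 1.02. The basement membrane chains COL4A1 (-0.14) and COL4A2 (-0.01), chosen after their values were seen, did not pass.

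Among 32 matrix glycoproteins and proteoglycans 17 rose in DMD KO (median 0.64) and 8 fell in WT (median -0.39), and 16 differed between the genotypes. Fibronectin (FN1), which cells lay down early in wound repair, was at 8.79, 8.77, 8.72 and 8.73 in newborns and 10.84, 10.78 and 11.05 in grown animals. WT muscle ran from 9.38 to 9.75 at 2 days and 8.75 to 9.23 at 3 months, so newborn DMD KO muscle was at the level of grown WT muscle and grown DMD KO muscle above all other arrays. The rise was 4.38-fold (2.13 ± 0.13, SE, adjusted p = 2.94e-06). Periostin (POSTN) stood at 8.80, 10.35, 9.95 and 9.52 in newborns and 11.95, 11.69 and 11.82 in grown animals, and at 11.85, 11.76 and 12.14 and 9.74, 8.31 and 9.85 in WT. It rose 4.49-fold in DMD KO and fell by 2.62 in WT.

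The proteoglycans ASPN and VCAN followed the same course, with rises of 2.50 and 2.21 in DMD KO and WT changes of -1.63 and -1.35. FMOD, which organises collagen fibrils, rose by 2.06 and decorin (DCN), which binds collagen and TGF-beta, by 1.05. Osteopontin (SPP1), a secreted protein of macrophages and regenerating fibres, was at 10.21, 10.23, 10.50 and 10.07 in newborns, already above all 6 WT arrays (7.46 to 8.14), and at 10.97, 10.74 and 11.37 in grown animals. Its rise of 0.77 ± 0.17 (SE, adjusted p = 0.0147) was not called without grown replicate 3. It was chosen after its values were seen.

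The genotype differences of the matrix list share the DMD KO arrays with the age change. At 2 days 12 of the 32 genes were lower and 2 higher than in WT, where 3.32% and 8.06% of all named genes were. At 3 months 15 were higher and the others did not pass, where 5.76% of all named genes were higher and 1.60% lower. Of 15 genes for making and crosslinking collagen 4 rose. PLOD2, the lysyl hydroxylase of collagen ends, rose 4.06-fold (2.02 ± 0.31, SE, adjusted p = 0.00143), SPARC, a collagen-binding protein, 2.31-fold, P4HA1, a prolyl hydroxylase, 1.99-fold, and LOX, the crosslinking oxidase, 1.63-fold. The call of P4HA1 was lost with 1 replicate left out (newborn 4, grown 3). LOX was at 8.58, 9.05, 9.13 and 9.09 in newborns, 9.55, 9.67 and 9.80 in grown animals, and 9.95, 9.96 and 9.79 and 8.28, 7.90 and 7.94 in WT at 2 days and 3 months, so it rose in one genotype and fell in the other (-1.86, adjusted p = 5.97e-05).

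Of 25 matrix proteases and their inhibitors 8 rose and 1 fell (median 0.25). PLAU (urokinase), which activates plasmin, was at 7.64, 7.66, 7.77 and 7.67 in newborns and 9.43, 10.19 and 9.42 in grown animals, a 4.00-fold rise with no overlap (adjusted p = 2.77e-05). CTSS, MMP16 (1.36), SERPINF1 (1.25), CTSK (0.99) and ADAM19 (0.82) also rose. TIMP3, a matrix-bound inhibitor of these proteases, fell 1.88-fold. With 1 of the bracketed replicates left out, no call was made for MMP16 (newborn 3 or 4, grown 1 or 2) and CTSK (grown 3). Of 11 tendon and cartilage markers the 2 that rose were KERA and FMOD, and the cartilage genes ACAN (-0.002), COL2A1 (0.13) and COL9A1 (0.02), chosen after their values were seen, did not pass.

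**Figure D2:**
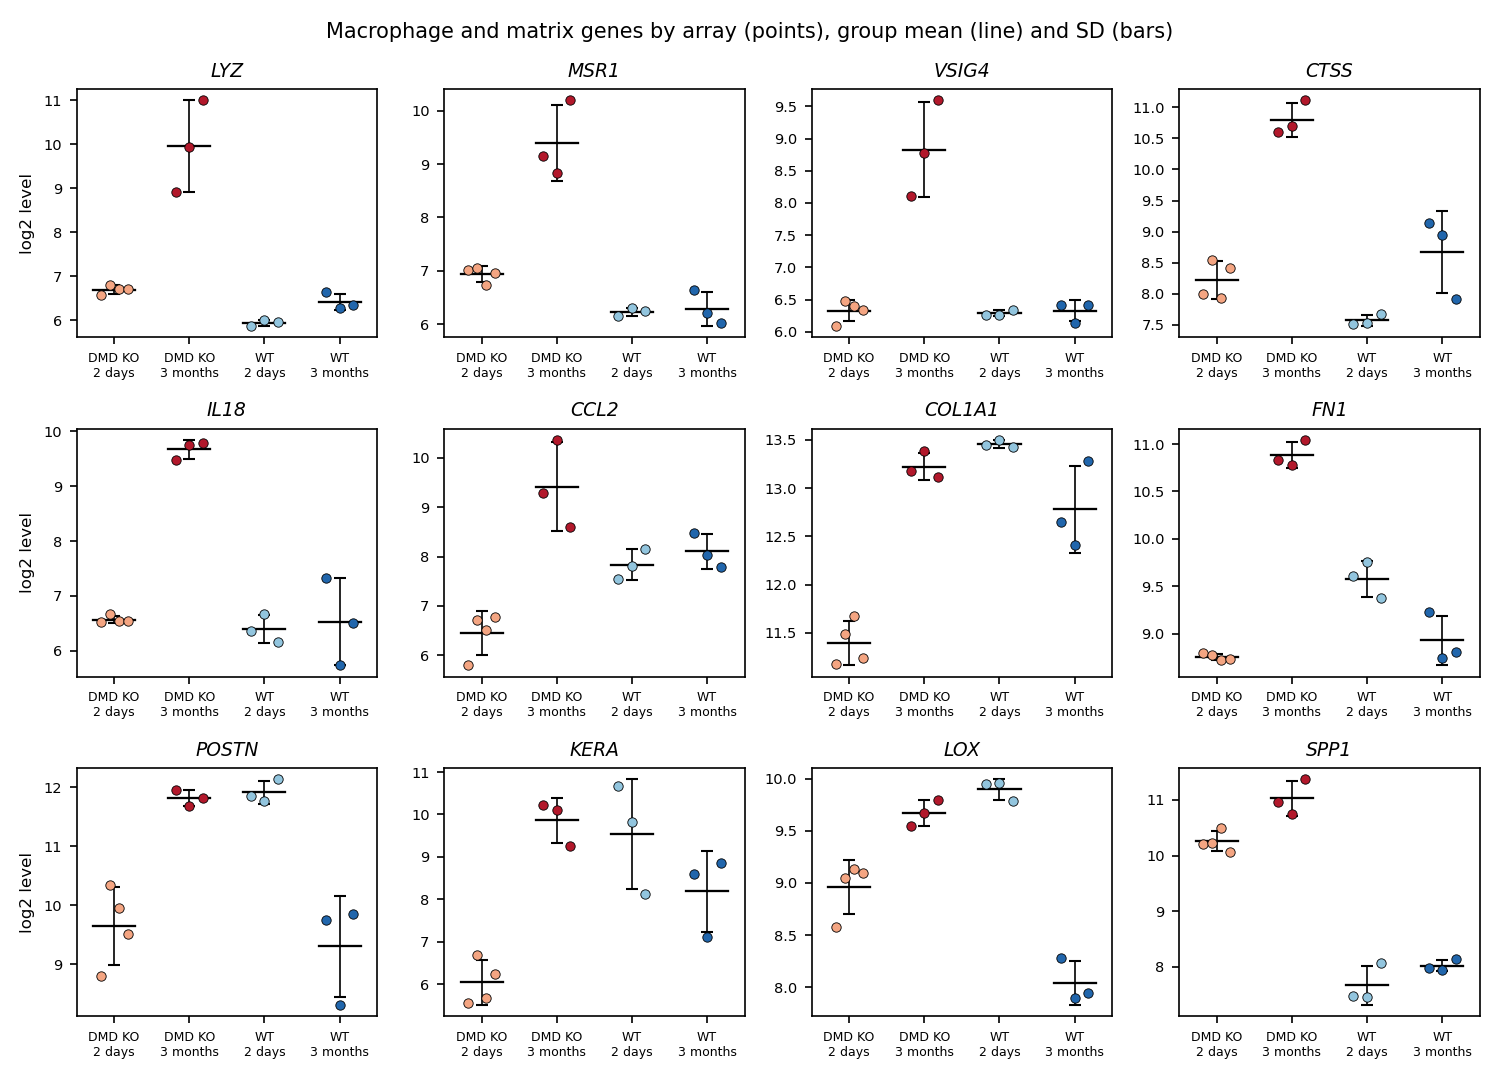
Log2 level of 12 genes in each of the 13 arrays (points), with the group mean (line) and SD (bars), for DMD KO at 2 days (n = 4) and 3 months (n = 3) and WT at 2 days and 3 months (n = 3 each). The vertical scale differs between panels. LYZ, MSR1, VSIG4 and IL18 are high in grown DMD KO muscle only, while COL1A1, POSTN and KERA are lowest in newborn DMD KO muscle or in grown WT muscle.

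Genes that reseal torn membranes rose in part. Of 19 annexins, ferlins and their partners 7 rose and 1 fell in DMD KO, and 2 rose and 3 fell in WT. Annexin A1 (ANXA1) was at 8.22, 8.21, 8.30 and 8.39 in newborns and 10.06, 10.16 and 10.13 in grown animals, a 3.57-fold rise (1.83 ± 0.22, SE, adjusted p = 0.000268). S100A11, a calcium-binding partner of annexins, rose 3.00-fold, myoferlin (MYOF) 2.43-fold and ANXA2 2.23-fold, and these 3 fell in WT (-1.27, -0.73 and -1.38). The ferlin of mature fibres, DYSF (dysferlin), did not pass (0.29, adjusted p = 0.183). CAPN3, the calpain of the sarcomere, fell by 0.69 (adjusted p = 0.0427), and rose in WT (0.92). The call of CAPN3 was lost with 1 replicate left out (newborn 1, 2 or 4, grown 1, 2 or 3, WT 2-day 2, WT 3-month 1, 2 or 3).

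DMD, the targeted gene, was at 12.08, 12.30, 12.11 and 12.21 in newborns and 11.84, 11.65 and 11.53 in grown animals by its brighter probe set. The difference of -0.50 ± 0.17 (SE, adjusted p = 0.105) did not pass, with a 95% interval from -0.88 to -0.13, and it passed without WT replicate 3 at 2 days. It also passed in a fit of the 7 DMD KO arrays alone. A dimmer probe set of DMD gave -0.42 (adjusted p = 0.218). Which side of exon 52 the probe sets cover is unknown here, so these levels do not check the deletion. Utrophin (UTRN), which can stand in for dystrophin at the membrane, was at 8.32, 8.40, 8.15 and 8.53 in newborns and 8.06, 8.10 and 8.30 in grown animals (-0.19 ± 0.18, SE, adjusted p = 0.722), and the groups overlapped.

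Of the 12 genes of the dystrophin complex and its relatives 1 rose and 1 fell, where 5.70% and 4.15% of all named genes did. Sarcospan (SSPN), a small membrane protein bound to the sarcoglycans, was at 9.80, 9.98, 9.57 and 9.64 in newborns and 8.39, 8.66 and 8.08 in grown animals, a 2.59-fold fall (adjusted p = 0.000263) that differed from WT (-1.21, adjusted p = 0.013). SNTB1 (beta-1-syntrophin) rose by 0.46 (adjusted p = 0.0219), and rose by 0.95 in WT. The sarcoglycans SGCA (-0.01), SGCB (-0.01) and SGCE (-0.08), the laminin chains LAMA2 (-0.42), LAMA4 (0.35) and LAMB1 (-0.20) and the integrin ITGB1 (0.22) did not pass, though LAMA2 did without WT replicate 3 at 2 days. The call of SNTB1 was lost with 1 replicate left out (newborn 1, 2 or 4, grown 2 or 3).

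Nuclear genes of the respiratory chain fell together in DMD KO. Of 31 subunits of complex I, which passes electrons from NADH into the chain, 16 fell and all 31 had a value below 0 (median -0.46). In WT 1 rose and 1 fell, with a median of 0.04, and the change was lower than in WT for 11. Of 19 subunits of complexes II to V, where the chain ends and ATP is made, 15 fell in DMD KO (median -0.72) against 1 in WT (median -0.17), and 7 differed from WT. The mean level of the complex I list was 9.28 to 9.46 in newborn and 8.85 to 8.94 in grown DMD KO arrays, against 9.02 to 9.34 in WT, so grown DMD KO muscle lay below all other arrays. That of complexes II to V was 10.15 to 10.32 in newborns, 9.44 to 9.65 in grown animals and 9.61 to 10.22 in WT.

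COX5B, a subunit of cytochrome oxidase, was at 9.43, 9.32, 9.35 and 9.56 in newborns and 8.46, 8.58 and 8.39 in grown animals, against 8.58 to 8.97 in WT at both ages. The fall was 1.91-fold (-0.94 ± 0.10, SE, adjusted p = 7.8e-05) with no overlap. The ATP synthase genes ATP5H and ATP5E fell 1.83-fold and 1.78-fold, and ATP5J2 (-0.91), ATP5L (-0.82) and COX7A2 (-0.92) fell by similar amounts. ATP5H was at 11.59, 11.39, 11.32 and 11.55 in newborns and 10.54, 10.57 and 10.65 in grown animals. In complex I NDUFB11 was at 9.73, 9.62, 9.60 and 9.72 in newborns and 8.77, 9.26 and 8.81 in grown animals (1.64-fold lower, adjusted p = 0.00368), and NDUFB6 (-0.80), NDUFA9 (-0.73), NDUFS1 (-0.70) and NDUFC2 (-0.82) fell as well. NDUFA1 had the largest fall of its list (-1.03 ± 0.26, SE, adjusted p = 0.0259). Calls that ended with 1 replicate in brackets left out were those of NDUFA1 (newborn 1, 2 or 4, grown 1 or 2), NDUFC2 (newborn 1, 2 or 3, grown 1 or 2) and COX7A2 (newborn 1, 2, 3 or 4, grown 1 or 2). With any 1 array left out, the falls numbered 12 to 19 in complex I and 10 to 16 in complexes II to V.

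**Figure D3:**
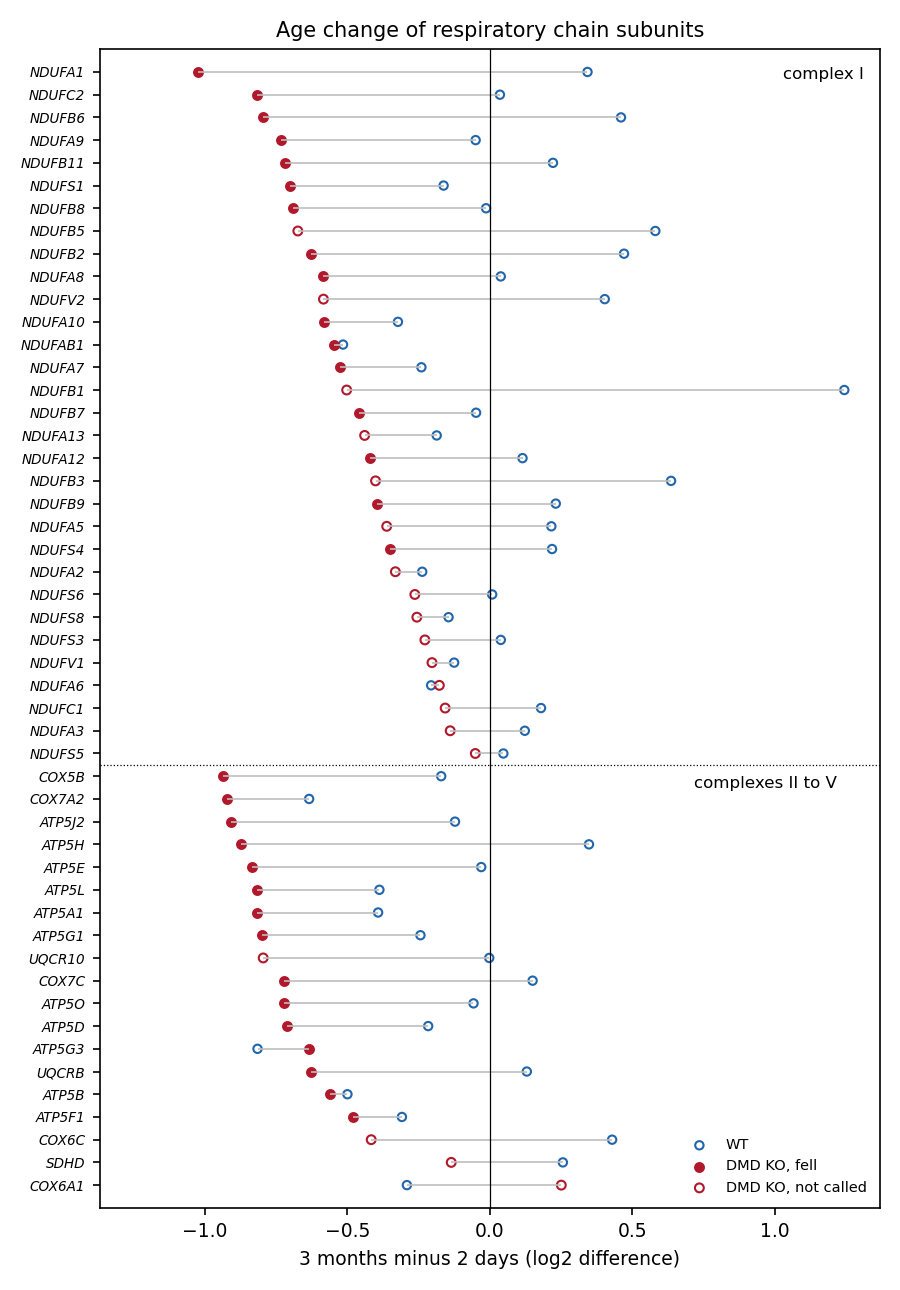
Log2 difference between 3 months and 2 days for the 31 measured subunits of complex I (above the dotted line) and the 19 of complexes II to V (below), in DMD KO (red, filled where the fall was called) and WT (blue). All 31 complex I subunits lie left of 0 in DMD KO, and WT values lie on both sides of it.

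The citric acid cycle and its supply of pyruvate fell too. Of 19 genes 9 fell and 1 rose in DMD KO (median -0.58), against 1 in each direction in WT (median -0.06). IDH3B, of the isocitrate dehydrogenase of the cycle, was at 9.55, 9.22, 9.21 and 9.43 in newborns and 8.27, 8.26 and 8.24 in grown animals (2.14-fold lower, adjusted p = 0.000644). MPC2, which lets pyruvate into the mitochondrion, fell 2.06-fold and citrate synthase (CS), often used as a measure of mitochondrial content, 1.68-fold. IDH3A (-0.79), DLST (-0.69) and PDHX (-0.68) fell as well. The gene that rose was PDK3 (1.28), a kinase that inhibits pyruvate dehydrogenase, which rose in WT by a like amount (1.13). The call of PDHX was lost with 1 replicate left out (newborn 1 or 2, grown 1 or 3).

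PDK4, the kinase of the same family that fasting raises in muscle, was at 11.05, 11.94, 11.99 and 12.28 in newborn and 9.93, 10.01 and 12.10 in grown DMD KO animals, and at 12.24, 11.21 and 10.52 and 7.18, 7.80 and 6.08 in WT at 2 days and 3 months. It is named after its values were seen. Grown DMD KO replicate 3 lay within the newborn range, and the change did not pass (-1.14 ± 0.57, SE, adjusted p = 0.337). In WT it fell by 4.30 (adjusted p = 0.00284), and the difference between the genotypes was called (3.17, adjusted p = 0.048).

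Some genes of fat use fell in both genotypes. Of 29 genes of fatty acid uptake and oxidation 8 fell and 1 rose in DMD KO (median -0.19), and 4 fell in WT (median -0.24). Without grown replicate 1 the falls in DMD KO were 5. LPL, the lipase that frees fatty acids from blood lipids, fell 2.76-fold, ACSL1, which activates them, 2.62-fold, and HADHA, of the trifunctional oxidation enzyme, 2.45-fold. ACSL1 and HADHA changed by nearly the same amount in WT (-1.33 and -1.29), and the interval of the difference between the genotypes ran from -0.75 to 0.63 for ACSL1 and from -0.72 to 0.71 for HADHA (95%). ETFDH (-0.94), ETFA (-0.80) and the fatty acid carrier CD36 (-0.82) fell in DMD KO, and ACSL5 rose (0.77). In the PGC-1 list, which holds regulators of mitochondrial number, 3 of 11 genes fell, NAMPT (-1.28), PPARA (-0.97) and TFB1M (-0.39), and the count was 1 without grown replicate 1 or without grown replicate 2. Leaving out 1 of the replicates in brackets ended the calls of CD36 (newborn 1, 2, 3 or 4, grown 1 or 2), ACSL5 (grown 3), NAMPT (newborn 1, 3 or 4, grown 1 or 2) and TFB1M (grown 1 or 2).

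Some genes of muscle wasting fell. Of 13 atrophy genes 5 fell (median -0.27), while in WT 1 rose (median 0.21). FBXO32, the ubiquitin ligase that marks muscle protein for breakdown, was at 9.75, 9.80, 10.58 and 10.998 in newborns and 7.93, 8.20 and 9.62 in grown animals, against 6.64 to 7.57 in WT. All grown values were below the newborn ones, with replicate 3 close to them, and all DMD KO arrays were above WT. The fall was 3.25-fold (-1.70 ± 0.39, SE, adjusted p = 0.0158), and it was not called without grown replicate 1 or without grown replicate 2. FOXO3, the transcription factor that drives FBXO32, fell 2.11-fold, from 9.45 ± 0.29 (SD, n = 4) to 8.37 ± 0.44 (SD, n = 3). UBE2B (-1.11), FBXO21 (-0.83) and TRIM55 (-0.61) also fell. The count of 5 became 1 without grown replicate 1 or grown replicate 2, and 3 without newborn replicate 2, 3 or 4. With 1 of the bracketed replicates left out, no call was made for UBE2B (newborn 1, 2, 3 or 4, grown 1 or 2), FBXO21 (grown 1 or 2) and TRIM55 (newborn 2, 3 or 4, grown 1, 2 or 3, WT 3-month 2 or 3).

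Few genes of the autophagy list passed. RETREG1 was at 9.86, 9.66, 10.26 and 10.69 in newborns and 7.57, 8.05 and 8.51 in grown animals, against 7.07 to 8.11 in WT, and GABARAPL1, a coat protein of autophagosomes, was at 11.85, 11.87, 12.25 and 12.58 and 10.11, 10.19 and 11.24, against 8.51 to 9.91 in WT. Neither overlapped between the ages of DMD KO, grown replicate 3 was the highest grown value of both, and GABARAPL1 fell 3.09-fold (adjusted p = 0.00763). Of 29 genes of autophagy and the lysosome these 2 and ATG13 (-0.58) fell and the lysosomal protease CTSH rose (1.88, 3.68-fold). The list median was -0.05, and over all named genes 4.15% fell and 5.70% rose. The falls numbered 5 without WT replicate 3 at 2 days. Of 26 proteasome subunits 3 fell, PSME4 (-1.22), PSMD3 (-0.52) and PSMD13 (-0.42), and the count was 1 without any 1 of 7 arrays and 5 without WT replicate 3 at 2 days. Calls that ended with 1 replicate in brackets left out were those of ATG13 (newborn 4, grown 1 or 2), PSME4 (newborn 1, 2, 3 or 4, grown 1 or 2, WT 2-day 2, WT 3-month 1, 2 or 3) and PSMD13 (newborn 1, 3 or 4, grown 1 or 2, WT 2-day 1, WT 3-month 2 or 3).

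All 38 measured cytosolic ribosomal proteins had values below 0 in DMD KO (median -0.28), and 9 passed. The largest fall was in RPS29, from 7.63 ± 0.03 (SD, n = 4) to 6.89 ± 0.10 (SD, n = 3), 1.68-fold lower. RPL8 (-0.54), RPLP2 (-0.50), RPL14 (-0.46), RPS28 (-0.43) and RPLP0 (-0.43) followed. The count of 9 was 1 without grown replicate 1 and 4 without grown replicate 2, and these genes have near-identical copies in the genome, so single values are uncertain. In WT 4 fell (median -0.12), and 2 of the 38 differed between the genotypes. Leaving out 1 of the replicates in brackets ended the calls of RPL8 (grown 1), RPLP2 (grown 1 or 2), RPL14 (newborn 2 or 3, grown 1 or 2), RPS28 (grown 1 or 3) and RPLP0 (grown 1).

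Many enzymes of glycolysis rose in both genotypes. Of 19 glycolysis genes 11 rose and 1 fell in DMD KO (median 0.52) and 9 rose in WT (median 0.51). GPD1, of the glycerol phosphate shuttle, rose by 1.45 in DMD KO and 1.25 in WT, and GPI, the isomerase of glucose phosphate, by 1.08 and 1.21. LDHA, which makes lactate, was at 11.94, 12.19, 11.73 and 11.89 in newborns and 13.01, 13.10 and 12.90 in grown animals, a 2.10-fold rise (adjusted p = 0.00019). PKM (0.91), ENO3 (0.77) and GAPDH (0.64) rose as well, and SLC2A4, the glucose carrier that answers to insulin, fell by 0.59 (adjusted p = 0.00169) and by contrast with WT (-0.73, adjusted p = 0.00853). The count of 11 was 5 without grown replicate 1 or 2 and 7 without newborn replicate 2 or 3. With 1 of the bracketed replicates left out, no call was made for ENO3 (newborn 1 or 3, grown 1 or 2) and GAPDH (grown 1 or 2). PFKFB1, a regulator of glycolysis, rose in WT (1.63) and did not pass in DMD KO (-0.65, adjusted p = 0.154), except without newborn replicate 3.

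Glycogen genes moved in both directions. Of 15 genes 5 rose and 3 fell in DMD KO, while 6 rose in WT. The breakdown enzyme PYGM (1.08), its partner PGM1 (1.45) and the glycogen-binding protein STBD1 (1.29) rose in both genotypes (WT 1.16, 2.12 and 1.45). On the side of synthesis UGP2, which makes UDP-glucose, was at 12.25, 11.72, 12.12 and 12.18 in newborns and 10.79, 10.80 and 11.13 in grown animals, a 2.23-fold fall (adjusted p = 0.0046). EPM2A (laforin) fell by 0.61 and GYS1, the muscle glycogen synthase, by 0.61 (adjusted p = 0.029). GYS1 and EPM2A differed from WT (-0.88 and -0.74). The call of GYS1 was lost with 1 replicate left out (newborn 1 or 2, grown 1 or 3).

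Among 10 genes of phosphocreatine, adenine nucleotide and pH buffering 3 rose and 1 fell. CA3, the carbonic anhydrase of muscle fibres, was at 8.73, 9.33, 8.75 and 9.37 in newborns and 11.55, 12.08 and 11.33 in grown animals (6.10-fold, adjusted p = 4.27e-05). AMPD1, the AMP deaminase of fast fibres, was at 9.07, 9.72, 8.13 and 9.07 in newborns and 10.91, 11.22 and 10.87 in grown animals (4.00-fold, adjusted p = 0.000816), with WT between 10.84 and 11.98 at both ages. AK1 (adenylate kinase) rose by 1.31. CKMT2, the creatine kinase of mitochondria, was at 10.01, 9.64, 9.39 and 9.80 in newborns and 8.26, 8.54 and 7.91 in grown animals, a 2.78-fold fall (adjusted p = 0.000296) that WT did not share (0.30, adjusted p of the difference = 0.00227).

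Some contractile genes of fast fibres rose, and MYBPC2 and ACTN3 rose in both genotypes. In DMD KO 4 of 10 rose (median 0.32) and in WT 5 of 10 (median 0.52). MYBPC2, the fast myosin-binding protein C, was at 7.48, 7.79, 7.49 and 8.10 in newborns and 9.54, 9.83 and 9.44 in grown animals (3.70-fold), and at 9.26, 8.41 and 8.87 and 10.36, 10.23 and 10.54 in WT. ACTN3, the fast-fibre actinin, was at 8.51, 8.42, 8.43 and 8.25 and 9.98, 10.06 and 9.81 in DMD KO (2.92-fold) and at 9.36, 8.86 and 9.25 and 11.06, 10.89 and 11.57 in WT. For both genes the grown DMD KO values lay below the grown WT values, and the difference in change between the genotypes did not pass (adjusted p = 0.666 and 0.378). LMOD3 (0.66) and MYH1, the IIx myosin chain (0.78), rose in DMD KO. The call of MYH1 was lost with 1 replicate left out (grown 2). MYOZ1, MYLK2 and TNNC2 rose in WT (1.12, 0.56 and 0.65) and had values of 0.03, -0.02 and 0.16 in DMD KO. The remaining 3, MYL1 (0.09), TPM1 (0.27) and MYLPF (0.37), did not pass in DMD KO.

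Of 10 slow-fibre genes 0 passed in DMD KO by limma (3 at an unadjusted p under 0.05, all 3 lower), with a median of -0.33. MYH7, the slow myosin chain, was at 11.90, 12.15, 11.89 and 12.22 in newborns and 11.55, 11.91 and 11.42 in grown animals (-0.42 ± 0.33, SE, adjusted p = 0.648), and MYL3, its light chain, differed by -1.12 (adjusted p = 0.0679). MYL3 passed without grown replicate 2 or without WT replicate 2 or 3 at 3 months. Its change was lower than in WT (-2.07, adjusted p = 0.0308). The others were LMOD2 (-1.04), CSRP3 (-0.99), MYOZ2 (-0.47), TPM3 (-0.24), MYH7B (-0.13), MYBPC1 (-0.07), MYL2 (0.11) and TNNC1 (0.27), and TNNC1 rose in WT (1.60). LMOD2 passed without any of 4 arrays taken singly (replicates WT 2-day 1 or 2, WT 3-month 2 or 3), and MYOZ2 without 1 (replicates WT 3-month 3). MYL3, LMOD2 and MYOZ2 also passed in a fit of the 7 DMD KO arrays alone.

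Of the 7 measured genes of the list for embryonic and neonatal contractile isoforms 2 rose in DMD KO and 2 fell in WT. The age change of 3 differed between the genotypes. The list also holds NEB, XIRP1, XIRP2, NRAP and CNN3, which are not embryonic or neonatal isoforms, so its counts do not describe such isoforms alone. Cardiac actin (ACTC1), which fetal and regenerating fibres make, was at 11.57, 12.54, 12.29 and 11.74 in newborns and 12.46, 12.38 and 12.23 in grown DMD KO animals. In WT it was at 12.67, 12.45 and 12.53 at 2 days and 8.84, 9.01 and 9.47 at 3 months. The DMD KO ages overlapped (0.32 ± 0.21, SE, adjusted p = 0.543), while WT fell by 3.44, and the difference was called (3.76, adjusted p = 3.85e-05). The embryonic light chain MYL4 rose by 1.40 (adjusted p = 0.000217), with a WT change of 0.48. The calponin CNN3 rose by 0.80 (adjusted p = 0.00396) and fell in WT (-0.95). Of the other 4 genes of the list, NRAP (-0.48), XIRP1 (-0.41), XIRP2 (-0.15) and NEB (-0.10) did not pass.

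Parvalbumin (PVALB), the calcium buffer that lets fast fibres relax quickly, was at 5.47, 5.33, 5.44 and 5.27 in newborn and 5.80, 6.67 and 5.49 in grown DMD KO animals. In WT it was at 6.05, 5.27 and 6.22 at 2 days and 11.07, 10.42 and 11.37 at 3 months. All DMD KO values lay near or below the 25th percentiles of the arrays, and the change did not pass (0.61 ± 0.29, SE, adjusted p = 0.306). The calcium store protein of slow and fetal fibres, CASQ2, was chosen after its values were seen. It differed by -0.30 in DMD KO (adjusted p = 0.644) and fell by 2.86 in WT. Its fast-fibre relative CASQ1 rose in both genotypes (0.59 and 0.55). Of 17 calcium-handling genes CASQ1 was the 1 that rose in DMD KO, against 4 that rose and 2 that fell in WT. Over all named genes 5.70% rose in DMD KO, and 1.94% rose and 1.39% fell in WT.

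At the nerve contact the fetal acetylcholine receptor chain CHRNG rose by 0.52 (adjusted p = 0.0128) and the adhesion protein NCAM1, which denervated and regenerating fibres carry, by 0.65 (adjusted p = 0.00208). NCAM1 was at 8.91, 9.04, 9.04 and 9.14 in newborns and 9.52, 9.74 and 9.80 in grown animals and fell in WT (-0.52). Among 11 myogenic genes MET (0.88), MEF2A (0.80) and MYOG (0.35) rose and SPRY1 (-0.73), a brake on growth factor signals in satellite cells, fell, and the rises numbered 1 without any 1 of 4 DMD KO arrays. In the sarcomere list of 20 genes the M-band protein MYOM2 rose (1.17), and TCAP (-0.77) and ACTN2 (-0.68) of the Z-disc fell. Over all named genes 5.70% rose and 4.15% fell. Calls that ended with 1 replicate in brackets left out were those of CHRNG (grown 2), MET (newborn 1, 2 or 3, grown 1, 2 or 3), MYOG (newborn 1, 2 or 4, grown 2 or 3), SPRY1 (newborn 2 or 3, grown 1 or 3) and ACTN2 (grown 3).

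**Figure D4:**
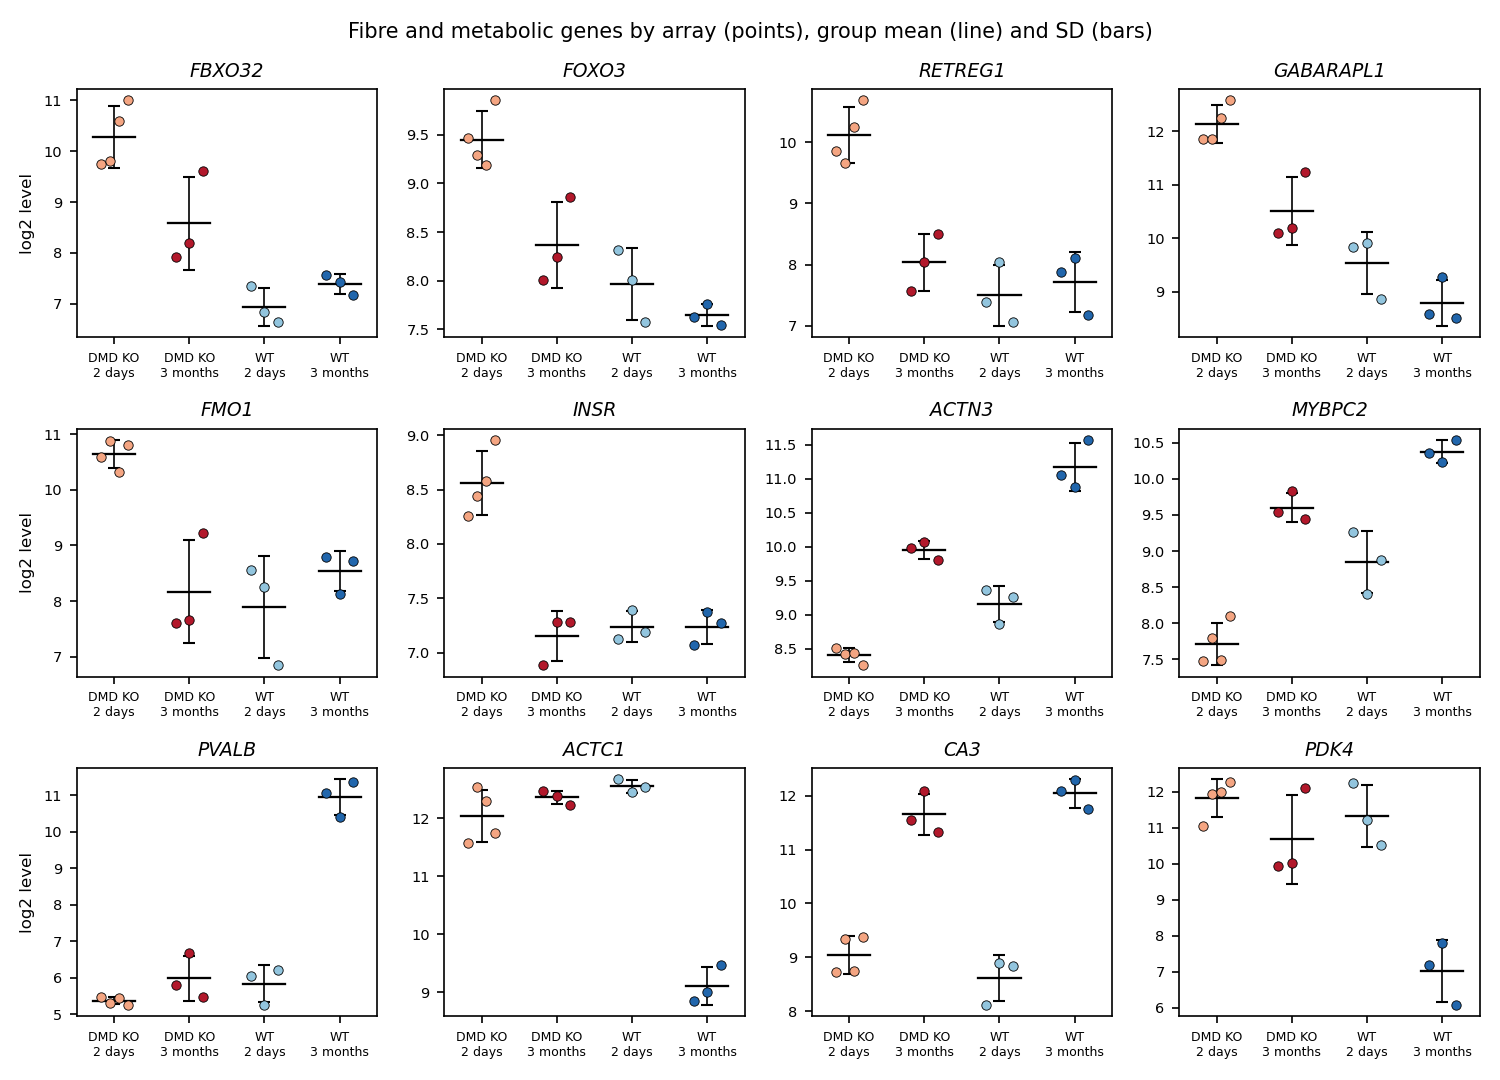
Log2 level of 12 genes of protein breakdown, metabolism and the contractile apparatus in each of the 13 arrays (points), with the group mean (line) and SD (bars), for DMD KO at 2 days (n = 4) and 3 months (n = 3) and WT at 2 days and 3 months (n = 3 each). The vertical scale differs between panels. FBXO32, RETREG1, FMO1 and INSR are high in newborn DMD KO muscle, CA3 rises in both genotypes, and PVALB and ACTC1 change in WT while the DMD KO ages stay close.

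Transcripts of the insulin and growth hormone list changed in both directions, with 2 rises and 5 falls among 15 genes (median -0.24). IGF1, the growth factor of muscle repair, was at 7.23, 7.41, 7.07 and 7.45 in newborns and 9.08, 9.42 and 9.95 in grown animals, a 4.57-fold rise (2.19 ± 0.32, SE, adjusted p = 0.00107) with no overlap, while WT ran from 7.97 to 9.63 over both ages. The insulin receptor (INSR) was at 8.26, 8.44, 8.58 and 8.96 in newborns and 6.88, 7.29 and 7.28 in grown animals, a 2.66-fold fall (adjusted p = 0.000146) to the WT level (7.07 to 7.40). IGF1R, the receptor for IGF1, fell 1.72-fold. CISH (-0.72), AKT2 (-0.39) and MTOR (-0.29) fell and DEPTOR, an inhibitor of MTOR, rose (0.57). The 5 falls of the list of 15 numbered 2 or 3 without any 1 of 6 DMD KO arrays. Leaving out 1 of the replicates in brackets ended the calls of CISH (newborn 1 or 4, grown 1, 2 or 3), AKT2 (newborn 2, 3 or 4, grown 1 or 3), MTOR (newborn 2, 3 or 4, grown 1, 2 or 3, WT 2-day 1, WT 3-month 2 or 3) and DEPTOR (newborn 1, 2, 3 or 4, grown 3). INSR was called with each array left out in turn.

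Myostatin (MSTN), the brake on muscle growth, was at 6.03, 6.55, 6.42 and 6.70 in newborns and 8.18, 8.27 and 8.08 in grown animals, a rise of 1.75 ± 0.19 (SE, adjusted p = 0.000105), and it rose by 1.53 in WT. TGFB3 (0.49) was the other gene of the 22 in the TGF-beta family list that rose, where 5.70% of all named genes did. The call of TGFB3 was lost with 1 replicate left out (newborn 4, grown 1 or 2). Of 14 imprinted and fetal growth genes 3 rose and 2 fell. MEST was at 7.66, 7.89, 8.21 and 7.51 in newborns and 9.76, 9.78 and 9.65 in grown animals (3.76-fold, adjusted p = 0.000247) and fell in WT (-1.52). SFRP2, a secreted inhibitor of Wnt, rose 3.94-fold by its brighter probe set, and its other probe set rose by 4.29. DLK1 fell 2.19-fold and IGF2BP2 by 0.96.

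Some genes of vessel cells fell. Of 10 endothelial markers 3 fell (median -0.15), and 0 passed in WT by limma (0 at an unadjusted p under 0.05). FLT1, a receptor for VEGF, was at 8.25, 8.16, 7.84 and 8.03 in newborns and 6.99, 7.09 and 6.97 in grown animals, against 7.50 to 7.71 in WT, a 2.07-fold fall (adjusted p = 5.56e-05). Newborn DMD KO values were all above and grown ones all below the WT arrays. KDR, the main VEGF receptor, fell 2.19-fold and PECAM1, an adhesion protein, 1.53-fold. VEGFA, their ligand, fell 1.86-fold (adjusted p = 0.0302). The mean level of the 10 markers was 8.03 to 8.21 in newborn and 7.63 to 7.84 in grown DMD KO arrays. In the hypoxia list of 17 genes EGLN3, VEGFA and EPAS1 (-0.52) fell and P4HA1 and LDHA rose. Of 10 pericyte and smooth muscle markers 0 passed by limma (2 at an unadjusted p under 0.05). Of 11 adipocyte markers LPL alone was called, lower in grown animals. With 1 of the bracketed replicates left out, no call was made for PECAM1 (newborn 1 or 4, grown 1 or 2) and VEGFA (newborn 1, 2 or 3, grown 1, 2 or 3).

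Dividing cells and protein folding gave smaller groups. Of 25 cell division genes 21 had values above 0 in DMD KO (median 0.31) and 1 passed, TOP2A (1.32, adjusted p = 0.0348). Over all named genes 48.0% had values above 0 and 5.70% rose. In WT the median was -0.50, and the difference between the genotypes was called for 8. TOP2A was at 7.74, 7.28, 7.68 and 7.59 in newborn and 8.55, 8.46 and 9.68 in grown DMD KO animals and at 9.32, 9.998 and 8.75 and 8.74, 7.58 and 8.12 in WT at 2 days and 3 months, so newborn DMD KO muscle started low. Of 21 genes of endoplasmic reticulum stress and the amino acid response 6 rose (3 without newborn replicate 2 or grown replicate 3). ASNS, which makes asparagine, rose by 1.85, PSAT1, of serine synthesis, by 1.07, and the chaperones HSPA5 (0.93) and CALR (0.81) with XBP1 and PDIA6 (0.48). Calls that ended with 1 replicate in brackets left out were those of TOP2A (newborn 1, 2, 3 or 4, grown 1 or 3), HSPA5 (newborn 2, grown 2 or 3), PDIA6 (newborn 2 or 4, grown 3) and PSAT1 (newborn 1, 2, 3 or 4, grown 1, 2 or 3). EGR2, an early response gene, was at 6.95, 7.14, 7.24 and 7.16 in newborns and 8.25, 10.28 and 8.26 in grown animals. Its rise of 1.81 was 1.13 without grown replicate 2.

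**Figure D5:**
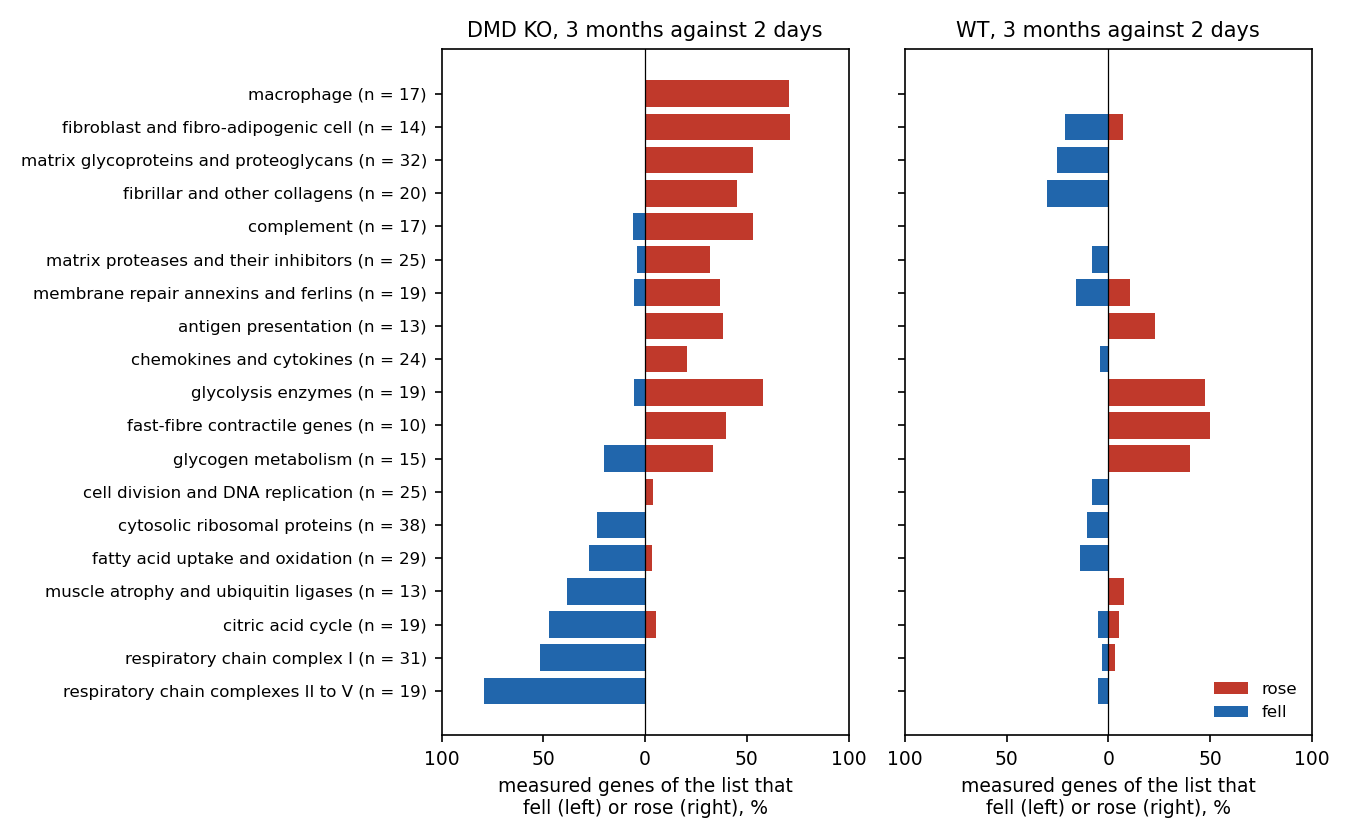
Share of the measured genes of 19 lists that rose (red, to the right) or fell (blue, to the left) between 2 days and 3 months in DMD KO (left panel) and WT (right panel), in percent of the measured genes, with their number beside each list. Over all 10283 named genes 5.70% rose and 4.15% fell in DMD KO. Macrophage, fibroblast and matrix lists reach far to the right in DMD KO and in WT mostly to the left or not at all, and the respiratory chain lists reach far to the left in DMD KO.

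Levels of cell type markers moved beside these gene groups. Between newborn and grown DMD KO animals the mean levels of the macrophage and fibroblast lists were higher and that of the endothelial list lower, with no overlap, at the values given above. Mean levels of other cell type lists also lay apart between the ages. They were higher in grown animals for tendon and cartilage (7.11 to 7.17 in newborns and 7.63 to 8.02 in grown animals), T and NK cells (6.33 to 6.43 and 6.60 to 6.70), B and plasma cells (6.88 to 6.94 and 7.05 to 7.18), mast cells (7.21 to 7.40 and 7.43 to 7.51) and Schwann cells and nerve (7.202 to 7.250 and 7.274 to 7.312). The median changes of the members of these lists were 0.23, 0.06, -0.04, 0.03 and -0.003 in that order. Values were above 0 for 10 of 11, 10 of 15, 3 of 8, 2 of 4 and 2 of 4 markers. A higher list mean was therefore not a rise shared by all markers. Lower means were found for pericytes and smooth muscle (8.16 to 8.20 and 7.86 to 8.12) and adipocytes (7.44 to 7.53 and 7.30 to 7.36). Their list medians were -0.12 and -0.03. The neutrophil, red blood cell and lymphatic and mesothelial means overlapped. Their part in the falls of the respiratory chain, the ribosome and other genes of muscle fibres was not tested.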

How the data were processed

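Biceps femoris muscle of 13 pigs was measured on 1-colour Affymetrix expression arrays. The deposited values are log2 levels, a scale inferred from their range of 2.81 to 13.8, since no source used here states log base or normalization. Affymetrix Power Tools made them, per the submitters' processing notes. They were used as deposited, and all 13 sample columns were used.

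Groups came from the sample titles. A linear model of the 4 groups over 21893 probe sets was fitted by lmFit and eBayes of limma 3.58.1 (R 4.3.3) with 9 residual degrees of freedom, with Benjamini-Hochberg adjustment over all probe sets and a threshold of 0.05. The contrasts were the age change in DMD KO, in WT, and their difference. The platform annotation gave exactly 1 symbol to 11028 probe sets, several to 418 and none to 10447. Only the first were named, and 485 probe sets repeat the values of another.

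Genes were named by a rule: the 15 largest rises and 15 largest falls without overlap, the 8 largest differences from WT in each direction, of each list the called members up to 6 in each direction (or 3 by level), and all members of the contractile and dystrophin lists. The comparison, lists and rule were chosen with earlier results of these data known. The script was tested on simulated data. Alternatives were array weights, moderation, normalization, a level filter, a block, a fold threshold and each array left out. A fit of the 7 DMD KO arrays alone and the mean of all probe sets of a gene were also run. P-values measure the spread between animals.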

Additional observations from a re-analysis of the deposited data

Results flagged for a closer look

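Within the 4 newborn DMD KO arrays 1 value stood far from the other 3 for 9 of the 262 genes named here, where chance gives about 1 in 20 groups. The distant log2 levels were AASS at 7.81, ADAM19 at 7.58, ATG13 at 7.93, IL18 at 6.66, LOX at 8.58, MARCO at 7.66, MCCC2 at 7.55, MYH1 at 11.18 and MYOZ1 at 9.41. Each is the highest or the lowest of its group, and its cause was not tested.

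The age change differed between the genotypes by the interaction test of limma (adjusted p under 0.05) for 117 of the 262 genes. Values in brackets are the log2 change in DMD KO minus that in WT. Matrix, collagen and fibroblast genes with a higher change in DMD KO were KERA (5.18), POSTN (4.79), ASPN (4.13), VCAN (3.55), FN1 (2.78), FMOD (2.68), COL12A1 (2.67), LOX (2.57), COL1A1 (2.50), COL3A1 (2.39), COL1A2 (2.26), COL14A1 (2.18), FAP (2.15) and MMP16 (1.97). Matrix, collagen and fibroblast genes with a higher change in DMD KO also included PLAU (1.95), SPARC (1.82), PLOD2 (1.79), THY1 (1.78), COL6A3 (1.76), DCN (1.52), CTSS (1.48), CTSK (1.44) and SERPINF1 (1.17). Macrophage, complement and other immune genes with a higher change in DMD KO were IL18 (2.98), LYZ (2.78), CCL2 (2.70), VSIG4 (2.46), MSR1 (2.40), CXCL14 (2.12), CFI (1.99), FCER1G (1.76), MPEG1 (1.66), CLU (1.23), C1QB (1.04), BLNK (1.02), XBP1 (0.99) and SERPING1 (0.76). Macrophage, complement and other immune genes with a lower change in DMD KO were MASP1 (-1.02). Mitochondrial, citric acid cycle and fat genes with a higher change in DMD KO were PDK4 (3.17). Mitochondrial, citric acid cycle and fat genes with a lower change in DMD KO were COX5B (-0.77), ATP5J2 (-0.79), ATP5E (-0.81), NDUFB11 (-0.94), ATP5H (-1.22), NDUFB6 (-1.26), IDH3B (-1.26) and NAMPT (-1.86). Genes of sugar metabolism, contraction and calcium with a higher change in DMD KO were ACTC1 (3.76), S100A11 (2.85), CASQ2 (2.56), ANXA2 (2.54), ANXA1 (2.51), MYOF (2.01), CNN3 (1.75), NCAM1 (1.17) and MYL4 (0.92). Genes of sugar metabolism, contraction and calcium with a lower change in DMD KO were SLC2A4 (-0.73), EPM2A (-0.74), GYS1 (-0.88), TCAP (-0.96), MYOZ1 (-1.09), SSPN (-1.21), CAPN3 (-1.62), CKMT2 (-1.78), MYL3 (-2.07), PFKFB1 (-2.27) and PVALB (-4.49). Other genes of the lists with a higher change in DMD KO were PCLAF (3.54), MEST (3.43), TOP2A (2.53), IGF1 (2.44), CTSH (2.32), SFRP2 (2.22), PSAT1 (2.07), HSPA5 (1.65), ASNS (1.53), CALR (1.38) and PDIA6 (0.81). Other genes of the lists with a lower change in DMD KO were EPAS1 (-0.52), RPS29 (-0.81), DLK1 (-0.87), FLT1 (-1.01), INSR (-1.41), EGLN3 (-1.43), UBE2B (-1.79), FBXO32 (-2.15) and RETREG1 (-2.30). Genes in no list with a higher change in DMD KO were LRRC17 (3.79), ASPA (3.48), CTHRC1 (3.13), LOC100516876 (2.77), C1QTNF3 (2.65), CCDC80 (2.62), P2RY12 (2.61), CTSO (2.29), PPT1 (2.16), BANK1 (2.07), LIPA (2.05), LGMN (1.68) and MANBA (1.03). Genes in no list with a lower change in DMD KO were MCCC2 (-1.16), SPTB (-1.28), BEX1 (-1.32), PCCA (-1.33), DBT (-1.41), BCKDHB (-1.43), ALDH6A1 (-1.75), ABCA5 (-1.75), RSPO3 (-1.76), CTH (-1.82), AASS (-1.82), ALPK2 (-2.19), ADGRF5 (-2.32) and FMO2 (-2.59). Genes in no list with a lower change in DMD KO also included LOC100516643 (-2.65), TEX9 (-2.99) and FMO1 (-3.14).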

How the results depend on the processing

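With alternatives changed one at a time, no named gene that was called was called with the opposite sign. For the age change in DMD KO the calls numbered 3743 probe sets and 2015 named genes with array weights, and 544 and 333 where a log2 difference of at least 1 was also required, which asks for larger changes by its construction. For the difference between the genotypes they numbered 2760 and 1508 with array weights, and 681 and 398 with the fold requirement. The cause of the rise with array weights was not tested. A fit of the 7 DMD KO arrays alone gave 2499 probe sets and 1415 named genes for the age change. In that fit DMD, CTSV, CTSZ, LMOD2, MYL3, MYOZ2 and PCLAF passed, and MTOR, MYOG and VEGFA did not. With each array left out in turn the age change gave 1180 to 2294 probe sets and 685 to 1294 named genes, and the difference 789 to 1265 and 454 to 732. Apart from the replicate block below, the other settings run moved these counts by less than 1.5 times.

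The labels do not say that animals of the same replicate number are paired. The deviations of same-numbered DMD KO arrays correlated at 0.33, 0.03 and 0.06. Arrays of different numbers were not compared in this way, so these values cannot decide on a pairing. With the replicate number as a block the age change gave 1122 probe sets and 651 named genes, and the difference 541 and 325. Of the genes named here 204 were called, 147 of them under every alternative, and 57 were not called under at least 1. Probe sets near the 25th percentiles limit the precision of low genes.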

Other observations

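The genes of this paragraph and the next were chosen after their values were seen. Enzymes that break down branched-chain and other amino acids in the mitochondrion fell in grown DMD KO muscle in part. ALDH6A1, of valine breakdown, was at 8.90, 8.50, 8.55 and 8.99 in newborns and 7.34, 7.56 and 7.29 in grown animals (adjusted p = 0.00118). PCCA (-1.23), DBT (-1.13), BCKDHB (-0.997) and MCCC2 (-0.93), subunits of enzymes on the same routes, fell as well, as did the aminotransferases GOT1 (-1.43) and GOT2 (-0.94) and CTH (-1.56), of cysteine synthesis. Their partners did not all pass. BCKDHA, the other chain of the enzyme of BCKDHB, differed by -0.10, PCCB, the partner of PCCA, by 0.04, IVD by 0.05 and BCAT2 by -0.09. Further enzymes of these routes that were looked at did not all pass either.

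Several lysosomal enzymes rose, though of the 29 genes of the autophagy and lysosome list 1 rose and 3 fell (median -0.05). Over all named genes 5.70% rose and 4.15% fell. LIPA, the acid lipase, was at 7.31, 7.44, 7.48 and 7.68 in newborns and 9.40, 9.48 and 10.11 in grown animals, with no overlap (adjusted p = 9.66e-05). PPT1 (1.61), LGMN (1.44), CTSO (1.66), CTSC (1.39), MANBA (1.27) and ASAH1 (1.21) rose too. CTSC was not called without grown replicate 3. Of 9 cathepsins measured 5 rose (median 0.99), and CTSA (0.22), CTSL (0.20), CTSZ (0.37) and CTSV (-0.47) did not pass, though CTSZ did without WT replicate 3 at 2 days. Macrophages and muscle fibres both hold these enzymes, and the macrophage markers rose in the same animals; the part of either cell type was not tested.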
